A study of Arabidopsis thaliana with 12 samples.

Results

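The genes described here had lower transcripts after 3 weeks of cold in wild-type Arabidopsis shoots by the group means. In shoots of the mutant sid2-1 they were lower by less, or not lower at all. Members were chosen by 4 conditions on the group means of log2 array signals. The mean of wild type at 4 °C had to lie at least 1.2 below that of wild type at 22 °C, and the difference between sid2-1 at 4 °C and sid2-1 at 22 °C had to be above -0.6. The mean of sid2-1 at 4 °C had to exceed that of wild type at 4 °C by at least 0.6, and the mean of wild type at 22 °C had to be at least 5. A difference of 1 on the log2 scale is a 2-fold difference in signal. Of 22746 probe sets tested, 57 met the conditions, and 56 were kept because CHIL, an anthocyanin-related gene, was left out by the rule. Of the 56 members, 22 measure 1 gene each, 2 measure several genes, and 32 have no gene in the annotation used here and are described by their values only.

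Plants of the accession Col-0 (wild type) and of sid2-1, which has a lesion in an isochorismate synthase, were grown in soil at 22 °C for 23 days under a 12 h photoperiod. The 4 groups of 3 biological replicates each were sid2-1 kept for a further 3 weeks at 4 °C, wild type kept for a further 3 weeks at 4 °C, sid2-1 taken at 22 °C and wild type taken at 22 °C. The whole aerial part was harvested 4 h into the light period, and each of the 12 samples was hybridised to 1 Affymetrix array. Plants at 4 °C were 3 weeks older than those at 22 °C, so cold and age cannot be told apart, and a bracketed mark in the titles given to wild type at 22 °C is unexplained. The sid2-1 mutant was represented by 1 allele, and the gene mutated in it was not analysed here, so the genotype labels were not checked against it.

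Isochorismate synthase makes the precursor of most of the salicylic acid that Arabidopsis forms on infection, and salicylic acid is a hormone that turns on defence genes and restrains growth when it accumulates. Growth at low temperature slows cell expansion, which depends on enzymes that loosen, acetylate and remodel pectin, xylan and other polymers of the cell wall. Plants in prolonged cold also rebuild their chloroplasts, membranes and protective pigments.

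The arrays had nearly equal distributions, with medians of 4.39 to 4.47 and correlations of 0.978 to 0.99 between replicates across probe sets. Leaf markers (4 of 5 measured) lay between 5.53 and 14.01 on all arrays, and their summed level was 38.13 to 39.88 in sid2-1 at 4 °C, 37.23 to 39.48 in wild type at 4 °C, 44.4 to 45.03 in sid2-1 at 22 °C and 43.91 to 45.15 in wild type at 22 °C. Of 8 root markers 3 were measured, with EXPA7 at the lowest value of 2.2 on all arrays and PYK10 between 2.2 and 2.37. The summed root markers were 13.57 to 13.83 in sid2-1 at 4 °C, 14.28 to 14.78 in wild type at 4 °C, 12.65 to 13.22 in sid2-1 at 22 °C and 13.26 to 13.45 in wild type at 22 °C, and the remaining marker, LPR2, accounts for nearly all of these differences. The 1 measured marker of 6 for flowers and pollen, TUA1, lay between 7.09 and 8.21. The part of these markers in the members' values was not tested, and in whole shoots fewer cells of a type and less RNA per cell cannot be told apart.

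Because the conditions used the means of all 4 groups, every difference between the groups is fixed by the choice or bound to it, and the values below describe the members and support nothing. Over the 56 members the cold response of sid2-1 had a median of -0.47 and ran from -0.60 to 0.78, while that of wild type had a median of -1.38 and ran from -2.40 to -1.2. In sid2-1, 50 of the 56 members were still lower at 4 °C than at 22 °C and 6 were higher. At 4 °C, sid2-1 exceeded wild type by a median of 1.05, from 0.61 to 2.57. At 22 °C, sid2-1 differed from wild type by a median of -0.03, from -0.71 to 0.82, with 23 members higher and 33 lower in sid2-1. The median of all 22746 probe sets was 0 in each of these differences.

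**Figure D1:**
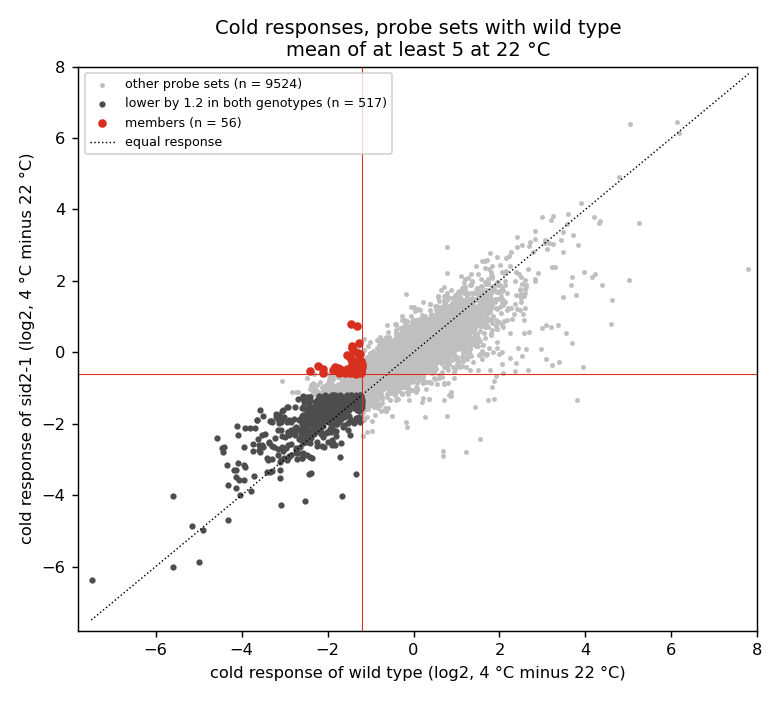
Cold response of sid2-1 (vertical axis, log2) against that of wild type (horizontal axis, log2), 1 point per probe set, each from means of 3 arrays; only probe sets with a mean of at least 5 in wild type at 22 °C are drawn. Members are red, probe sets lower by at least 1.2 in both genotypes are dark, thin red lines mark 2 of the conditions and the dotted line marks equal responses. The 56 members fill the strip between -2.40 and -1.2 in wild type, and 50 of them lie below 0 in sid2-1.

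The plot of the cold response of sid2-1 against that of wild type shows the members as the edge of a continuous cloud. Of 10097 probe sets with a mean of at least 5 in wild type at 22 °C, 927 were lower by at least 1.2 in wild type at 4 °C. The members are 6.04% of those 927, and 517 others were lower by at least 1.2 in both genotypes. Members of 1 gene lay close to the limits. On the wild-type response, AT5G40150 and AT2G43530 were just inside, both at -1.22, and AT5G42070 and AT4G04630 just outside, at -1.19 and -1.16. On the sid2-1 response, AT3G57810 at -0.59 and AT5G51560 at -0.58 were inside, and AT4G04750 at -0.60, which lay past the limit before rounding, and AT1G11700 at -0.61 outside. On the difference at 4 °C, AT5G40150 at 0.66 and AT5G17670 at 0.69 were inside, and AT5G23920 at 0.58 and AT1G13930 at 0.54 outside. On the level in wild type at 22 °C, TBL28 at 5.08 and AT1G78170 at 5.18 were inside, and AT5G15740 at 4.96 and AT1G60590 at 3.96 outside.

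All probe sets were fitted with limma, with 1 mean for each group, and calls were made at a Benjamini-Hochberg adjusted p under 0.05. In sid2-1 the limma test called 0 of 56 members lower (background 3.08%) and 0 higher (background 3.2%). At an unadjusted p under 0.05 there were 2 members (3.57%), against 20.6% of all probe sets. In wild type, 23 of 56 members were called lower at 4 °C, among them 13 of the 22 of 1 gene, against a background of 6.19% of all probe sets, and 0 were called higher (background 6.81%). That count of 23 was 10 without the second array of wild type at 4 °C, 7 without the first or without the third of wild type at 22 °C, 14 without the second of wild type at 22 °C and 15 without the second of sid2-1 at 22 °C. Calls over all probe sets fell as well with these removals, from 2956 to 1865, 2042, 1888, 2194 and 2569 in the same order. Between sid2-1 and wild type at 4 °C, limma called 0 of 56 members, and the background was 0.0132% higher and 0.602% lower in sid2-1. At an unadjusted p under 0.05 there were 30 members (53.6%), against 9.83% of all probe sets, and the members had been chosen on this difference. With the replicate number as a block within each temperature, limma gave 22 members an unadjusted p under 0.05 at 4 °C, against 11.8% of all probe sets. After adjustment that fit called 0 members there and 27 probe sets in all, in place of 140. TBL28 passed this test when array medians were subtracted, when low probe sets were filtered out or without the first array of wild type at 4 °C, AT1G78170 with that filter or without the third of these arrays, and Cpn60beta4 without the second. The interaction of genotype and temperature, which asks whether the cold responses of sid2-1 and wild type differ, was called by limma for 0 of 56 members (background 0.0615% in either direction, of which 0.0572% below 0). At an unadjusted p under 0.05 there were 11 members (19.6%), against 4.08% of all probe sets. With the block within each temperature, limma gave 11 members an unadjusted p under 0.05 for the interaction, against 6.16% of all probe sets. After adjustment that fit called the interaction for 0 members and for 0 probe sets in all, in place of 14. At 22 °C limma called 0 of 56 members in either direction, 0 had an unadjusted p under 0.05, against 3.03% of all probe sets, and the background was 0.0044%. The label under which these genes were grouped, a cold response found mainly in wild type, thus rests on group means, and the difference between the genotypes did not pass the test for any member.

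Read array by array, the 3 values of sid2-1 at 4 °C lay all below those of sid2-1 at 22 °C in 9 of 56 members, against a background of 11.1%. The 3 values of wild type at 4 °C lay all below the 3 of wild type at 22 °C in 43 of 56 members, where the background was 14.2%. The 3 values of sid2-1 at 4 °C lay all above the 3 of wild type at 4 °C in 27 of 56 (background 4.88%). At 22 °C the 3 values of sid2-1 lay all above those of wild type in 0 of 56 members and all below in 0 of 56, with backgrounds of 2.53% and 2.4%.

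**Figure D2:**
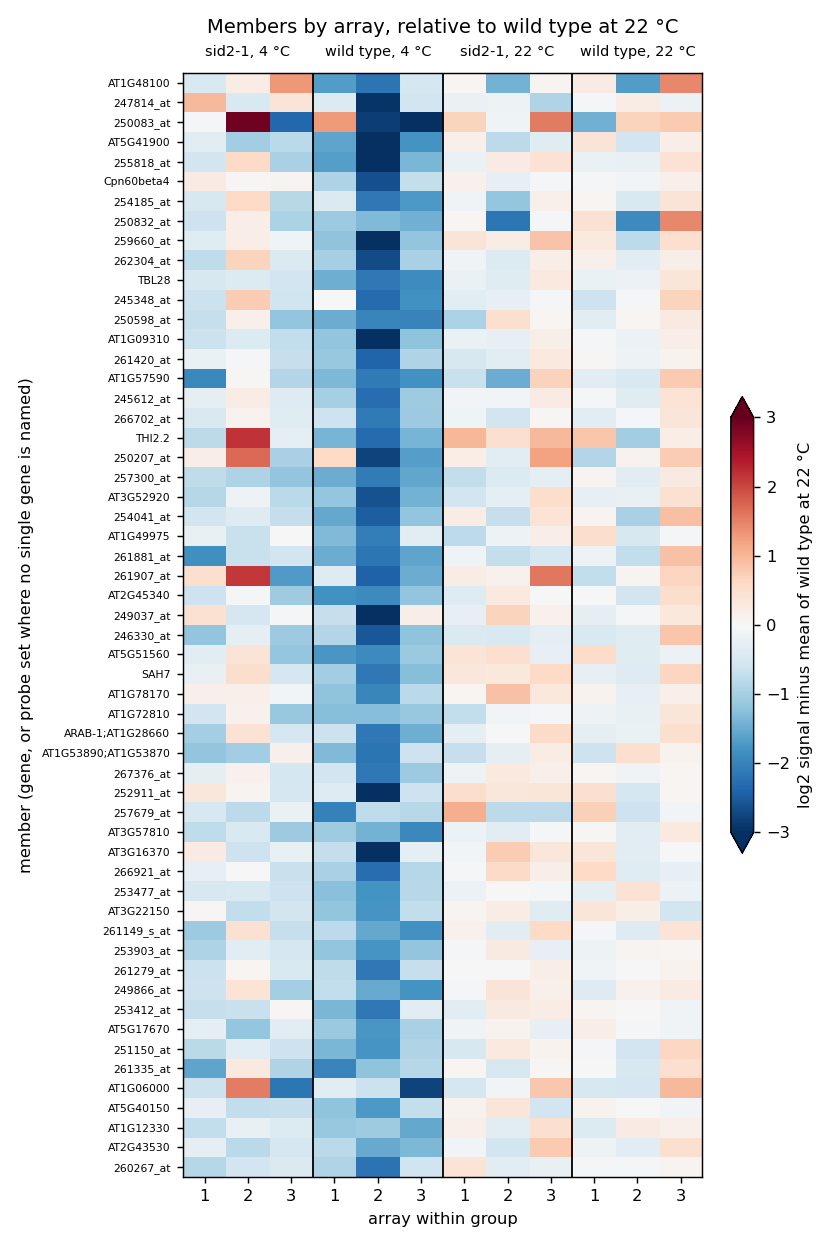
Log2 signal of each member (down the page) on each of the 12 arrays (across, sid2-1 at 4 °C, wild type at 4 °C, sid2-1 at 22 °C and wild type at 22 °C), drawn as the difference from that member's mean in wild type at 22 °C. The second array of wild type at 4 °C is the lowest of its group in 46 of the 56 members.

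The picture of all members by array shows that the arrays of wild type at 4 °C were not alike. The second of them held the lowest value of the group in 46 of 56 members, which is 82.1%, against 56.9% of the 517 probe sets that were lower in both genotypes and 41.6% of those with a mean of at least 5 in wild type at 22 °C. It lay below the mean of the other two by a median of -1.08 in members, by -0.31 in the 517 and by -0.05 in those of at least 5. The gap was at least 1 in 29 of 56 members (51.8%), against 17.8% of the 517 and 5.26% of those of at least 5. In sid2-1 at 4 °C the second array held the highest value in 37 of 56 members (66.1%), against 36.0% of the 517 and 38.3% of those of at least 5. A single low wild-type array or high sid2-1 array at 4 °C helps a probe set to meet the conditions. These shares are thus bound to the choice, and the comparison sets were not chosen on the difference between genotypes at 4 °C.

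For each array, the members' difference from their mean in wild type at 22 °C was summarised by its median. It was -0.53, 0.03 and -0.58 on arrays 1, 2 and 3 of sid2-1 at 4 °C, and -1.13, -2.15 and -1.18 on those of wild type at 4 °C. On the arrays at 22 °C it was -0.10, -0.14 and 0.16 in sid2-1 and -0.04, -0.24 and 0.29 in wild type. All 3 wild-type arrays at 4 °C were thus lower than all 3 sid2-1 arrays at 4 °C on this median, and the second arrays of the 2 genotypes lay farthest apart. Among the 517 probe sets that were lower in both genotypes, the medians were -1.92, -1.72 and -1.69 in sid2-1 at 4 °C and -1.93, -2.31 and -1.93 in wild type at 4 °C.

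**Figure D3:**
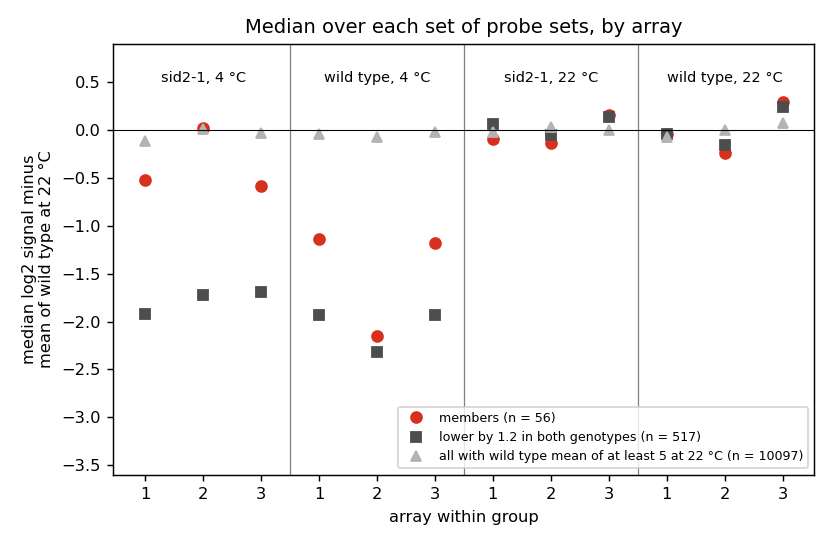
Median difference from the mean of wild type at 22 °C (log2, vertical axis) on each of the 12 arrays (horizontal axis, by group), for the members, for probe sets lower by at least 1.2 in both genotypes, and for all with a mean of at least 5 in wild type at 22 °C. The members' medians on the wild-type arrays at 4 °C are -1.13, -2.15 and -1.18.

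Without the second array of wild type at 4 °C the members' median response in wild type was -1.09, their median excess of sid2-1 at 4 °C over wild type at 4 °C was 0.72, and the median of the interaction was 0.78, above 0 in 55 of 56. The 4 conditions applied without that array found 24 probe sets, of which 19 were members, so that 33.9% of the members remained. The 10 that remained among the members of 1 gene were AT1G06000, AT1G12330, AT1G57590, AT2G45340, AT3G52920, AT3G57810, AT5G41900, AT5G51560, TBL28 and THI2.2. Leaving out the second array of sid2-1 at 4 °C found 44 probe sets and kept 26 members. No member met the conditions in all 12 removals of 1 array, and the median member met them in 9. With group medians in place of means, 55 probe sets were found, of which 17 were members.

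The same second array of wild type at 4 °C also had the highest mean of 10 defence-associated genes. That mean was 3.68, 4.64 and 4.2 in sid2-1 at 4 °C, 5.16, 5.97 and 4.96 in wild type at 4 °C, 3.77, 3.83 and 3.86 in sid2-1 at 22 °C, and 3.83, 4.08 and 3.81 in wild type at 22 °C. In wild type, limma called 4 of the 10 higher at 4 °C (background 6.81%) and 0 lower (background 6.19%). The median cold response of the list in wild type was 0.33, so part of the list carried its mean. WRKY20, WRKY42 and PR-1-LIKE had responses of 0.05, 0 and -0.06. CHI, a chitinase gene with the largest of these responses, 5.08, had 3.88, 6.03 and 5.56 in sid2-1 at 4 °C, 9.37, 11.12 and 8.71 in wild type at 4 °C, 3.93, 3.22 and 4.44 in sid2-1 at 22 °C, and 4.26, 5.41 and 4.3 in wild type at 22 °C. Within both genotypes at 4 °C the second array was thus the highest of the 3 for the defence mean. Within wild type at 4 °C it was the lowest for most members, and within sid2-1 at 4 °C it was the highest for most members. What the arrays' defence levels have to do with the members' values was not tested.

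Several members belong to families with roles at the cell wall or the plant surface, and no such role was tested here. TBL28 (AT2G40150) belongs to the trichome birefringence-like family, whose studied members add acetyl groups to wall polymers such as xylan. On arrays of sid2-1 at 4 °C the TBL28 signal was 4.59, 4.66 and 4.51, against 3.62, 2.93 and 3.18 in wild type at 4 °C, and it was 4.88, 4.71 and 5.37 in sid2-1 at 22 °C and 4.88, 4.9 and 5.45 in wild type at 22 °C. All 3 wild-type arrays at 4 °C lay below every other array, and the sid2-1 arrays at 4 °C lay below all of those at 22 °C but only slightly. The mean was 4.59 ± 0.08 in sid2-1 at 4 °C, 3.24 ± 0.35 in wild type at 4 °C, 4.99 ± 0.34 in sid2-1 at 22 °C and 5.08 ± 0.32 in wild type at 22 °C (SD, n = 3 each), so wild type was 3.56-fold lower at 4 °C, and sid2-1 was 2.54-fold above wild type at 4 °C. TBL28 was called lower in wild type, and its sid2-1 arrays at 4 °C had the smallest spread of any member.

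AT1G57590 is annotated as a pectin acetylesterase, an enzyme class that removes acetyl groups from pectin. AT1G57590 read 6.34, 8.31 and 7.39 in sid2-1 at 4 °C, 6.92, 6.14 and 6.45 in wild type at 4 °C, 7.6, 6.79 and 8.95 in sid2-1 at 22 °C and 7.94, 7.8 and 9.06 in wild type at 22 °C. At 4 °C the genotypes overlapped, because the first sid2-1 array lay below the first wild-type array. AT1G48100 encodes a polygalacturonase-like protein, of a class that cuts the pectin backbone. The log2 signal of AT1G48100 was 5.31, 6 and 7.06 in sid2-1 at 4 °C, 4.1, 3.59 and 5.24 in wild type at 4 °C, 5.82, 4.35 and 5.85 in sid2-1 at 22 °C and 6.01, 4.1 and 7.2 in wild type at 22 °C. Its arrays spread so widely in every group that both temperatures overlapped in wild type, and it was not called. It is the member of 1 gene with the largest interaction, 2.24 ± 1.203 (standard error from the limma model, n = 3 arrays per group).

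SAH7 (AT4G08685) encodes a secreted protein of the pollen allergen Ole e 1 and extensin family. On arrays of sid2-1 at 4 °C the SAH7 signal was 7.75, 8.5 and 7.49, against 6.94, 5.83 and 6.71 in wild type at 4 °C, and it was 8.32, 8.31 and 8.58 in sid2-1 at 22 °C and 7.74, 7.59 and 8.62 in wild type at 22 °C. The wild-type arrays at 4 °C lay below all others, and SAH7 was called lower in wild type. AT5G41900 encodes a hydrolase of the alpha/beta fold. AT5G41900 read 5.61, 4.91 and 5.14 in sid2-1 at 4 °C, 4.37, 2.66 and 4.16 in wild type at 4 °C, 6.09, 5.16 and 5.57 in sid2-1 at 22 °C and 6.33, 5.36 and 6.14 in wild type at 22 °C. It had the largest wild-type response among members of 1 gene, -2.21, or 4.64-fold lower at 4 °C, and was called. Its second wild-type array at 4 °C was more than 1 below the other two, and all 3 sid2-1 arrays at 4 °C lay above all 3 wild-type arrays.

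AT3G16370 encodes an extracellular lipase of the GDSL family, a family with members active on lipids and wall esters. The log2 signal of AT3G16370 was 10.55, 9.7 and 10.1 in sid2-1 at 4 °C, 9.59, 7.08 and 10.04 in wild type at 4 °C, 10.23, 11.07 and 10.66 in sid2-1 at 22 °C and 10.68, 9.97 and 10.29 in wild type at 22 °C. Here 1 array carried most of the difference. The third wild-type array at 4 °C lay within the range of sid2-1 and the first just under it, and without array 2 the response of wild type was -0.50 in place of -1.41. The probe set shared by ARAB-1 and AT1G28660, also GDSL lipases, cannot tell these genes apart. On arrays of sid2-1 at 4 °C its signal was 6.22, 7.68 and 6.74, against 6.6, 5.1 and 5.79 in wild type at 4 °C, and it was 6.98, 7.26 and 7.82 in sid2-1 at 22 °C and 6.96, 7.05 and 7.74 in wild type at 22 °C. It overlapped between genotypes at 4 °C and was not called. AT5G40150 encodes a class III peroxidase, a secreted enzyme type that can cross-link or loosen walls. AT5G40150 read 5.13, 4.65 and 4.7 in sid2-1 at 4 °C, 4.17, 3.66 and 4.66 in wild type at 4 °C, 5.48, 5.74 and 4.81 in sid2-1 at 22 °C and 5.49, 5.36 and 5.29 in wild type at 22 °C. It was called lower in wild type, and array 3 of wild type at 4 °C lay inside the range of sid2-1 at 4 °C.

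**Figure D4:**
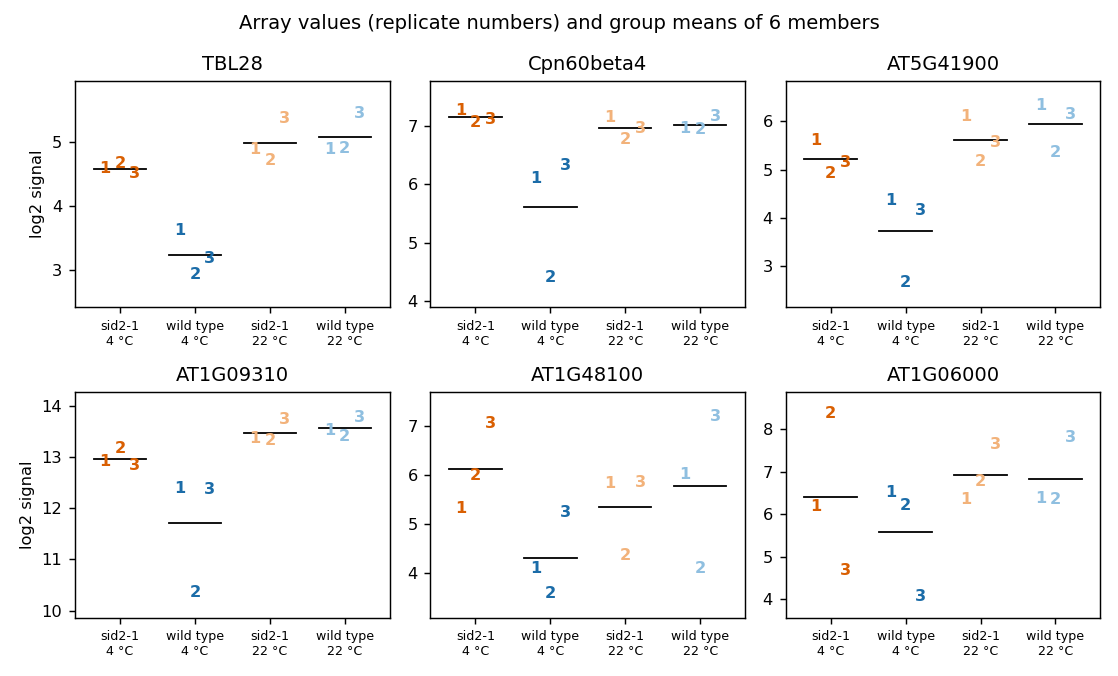
Log2 signal (vertical axis) of 6 members on the 12 arrays, with replicate numbers for single arrays and lines for the means of sid2-1 at 4 °C, wild type at 4 °C, sid2-1 at 22 °C and wild type at 22 °C (n = 3 each). TBL28 keeps its wild-type arrays at 4 °C together at 2.93 to 3.62, while AT1G09310 and Cpn60beta4 have 1 wild-type array at 4 °C far below the other two.

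The plot of 6 members, picked after their values were seen, sets the tight TBL28 beside members with a single low array. Among members with roles in the chloroplast, Cpn60beta4 (AT1G26230) encodes a chaperonin subunit of the plastid that is needed to fold NdhH, a subunit of the chloroplast NDH complex. The log2 signal of Cpn60beta4 was 7.28, 7.06 and 7.12 in sid2-1 at 4 °C, 6.11, 4.39 and 6.32 in wild type at 4 °C, 7.16, 6.77 and 6.97 in sid2-1 at 22 °C and 6.97, 6.94 and 7.17 in wild type at 22 °C. All 3 wild-type arrays at 4 °C lay below every other array, the second by far. Its means were 7.15 ± 0.11 in sid2-1 at 4 °C, 5.61 ± 1.06 in wild type at 4 °C, 6.97 ± 0.20 in sid2-1 at 22 °C and 7.03 ± 0.12 in wild type at 22 °C (SD, n = 3 each), and with AT1G48100 it was one of the 2 members of 1 gene with a higher mean in sid2-1 at 4 °C than in sid2-1 at 22 °C. The wild-type response of -1.42 was not called on all arrays. Without the second array it was -0.81 and was called. AT3G22150 encodes a pentatricopeptide repeat protein, of a family that edits or processes organelle transcripts. On arrays of sid2-1 at 4 °C the AT3G22150 signal was 6.06, 5.29 and 5.46, against 4.84, 4.24 and 5.29 in wild type at 4 °C, and it was 6.11, 6.24 and 5.65 in sid2-1 at 22 °C and 6.38, 6.2 and 5.47 in wild type at 22 °C. Array 3 of wild type at 4 °C equalled the lowest of sid2-1 at 4 °C, and it was not called.

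A pair of members, AT2G45340 and AT5G51560, encode receptor kinases with leucine-rich repeats, a class that senses signals at the cell surface. AT2G45340 read 5.79, 6.34 and 5.34 in sid2-1 at 4 °C, 4.59, 4.51 and 5.23 in wild type at 4 °C, 6.03, 6.7 and 6.41 in sid2-1 at 22 °C and 6.42, 5.87 and 6.94 in wild type at 22 °C. The 3 sid2-1 arrays at 4 °C lay above the 3 wild-type arrays at 4 °C, and AT2G45340 was called lower in wild type. The log2 signal of AT5G51560 was 5.76, 6.47 and 4.91 in sid2-1 at 4 °C, 4.34, 4.17 and 4.96 in wild type at 4 °C, 6.49, 6.58 and 5.82 in sid2-1 at 22 °C and 6.62, 5.71 and 5.9 in wild type at 22 °C. It was called lower in wild type as well, but array 3 of sid2-1 at 4 °C lay under the highest wild-type array.

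Small secreted peptides formed a further pair. THI2.2 (AT5G36910) encodes a thionin, a cysteine-rich peptide of a family toxic to microbes. On arrays of sid2-1 at 4 °C the THI2.2 signal was 4.56, 7.5 and 5.05, against 3.94, 3.03 and 3.94 in wild type at 4 °C, and it was 6.34, 5.83 and 6.31 in sid2-1 at 22 °C and 6.18, 4.29 and 5.55 in wild type at 22 °C. Its sid2-1 arrays at 4 °C spanned almost 3 units, with the second far above the others, and all 3 lay above the wild-type arrays at 4 °C. Its mean was also higher in sid2-1 than in wild type at 22 °C, by 0.82, the largest such excess among members, but the arrays at 22 °C overlapped. AT2G43530 encodes a defensin-like peptide. AT2G43530 read 9.67, 9.12 and 9.44 in sid2-1 at 4 °C, 9.12, 8.43 and 8.59 in wild type at 4 °C, 9.85, 9.35 and 10.71 in sid2-1 at 22 °C and 9.77, 9.61 and 10.42 in wild type at 22 °C. The lowest sid2-1 array at 4 °C equalled the highest wild-type array at 4 °C, and neither peptide was called.

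AT1G06000 encodes a glycosyltransferase that adds rhamnose to flavonols, which are ultraviolet screens. The log2 signal of AT1G06000 was 6.19, 8.38 and 4.68 in sid2-1 at 4 °C, 6.51, 6.2 and 4.07 in wild type at 4 °C, 6.34, 6.76 and 7.64 in sid2-1 at 22 °C and 6.37, 6.34 and 7.81 in wild type at 22 °C. Within sid2-1 at 4 °C it ran across almost 4 units, so the genotypes overlapped at 4 °C and it was not called. Among the genes left out by the rule, CHIL alone met the 4 conditions, with 7.28, 9.87 and 6.39 in sid2-1 at 4 °C, 7.45, 4.06 and 5.15 in wild type at 4 °C, 7.50, 6.28 and 9.26 in sid2-1 at 22 °C, and 5.91, 7.08 and 7.47 in wild type at 22 °C. CHIL shares with AT1G06000 a second sid2-1 array far above the others at 4 °C. DFR, an enzyme of anthocyanin synthesis also left out, had 8.05, 11.26 and 3.40 in sid2-1 at 4 °C and 8.99, 3.21 and 2.92 in wild type at 4 °C, a spread within groups wider than the gap between them.

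Of the other enzymes, AT1G72810 encodes a threonine synthase family protein of amino acid synthesis. Its log2 signal was 6.03, 6.73 and 5.47 in sid2-1 at 4 °C, 5.34, 5.33 and 5.48 in wild type at 4 °C, 5.88, 6.52 and 6.58 in sid2-1 at 22 °C and 6.46, 6.38 and 6.98 in wild type at 22 °C. It was called lower in wild type, and the third sid2-1 array at 4 °C lay just below the highest wild-type array. AT3G57810 encodes a cysteine protease of the OTU family, which removes ubiquitin. In sid2-1 at 4 °C its arrays read 5.22, 5.54 and 4.89, in wild type at 4 °C 4.91, 4.56 and 4.06, in sid2-1 at 22 °C 5.81, 5.67 and 5.95 and in wild type at 22 °C 6.03, 5.64 and 6.29. Both genotypes were lower at 4 °C with no overlap with their own arrays at 22 °C, and only the wild-type response was called. AT5G17670 encodes another alpha/beta fold hydrolase. Its log2 signal was 8.67, 7.77 and 8.59 in sid2-1 at 4 °C, 7.82, 7.18 and 7.97 in wild type at 4 °C, 8.82, 9.03 and 8.69 in sid2-1 at 22 °C and 9.13, 8.87 and 8.8 in wild type at 22 °C. It was called lower in wild type, where its arrays at 4 °C lay below every array at 22 °C, and the second sid2-1 array at 4 °C lay within the wild-type range. In sid2-1 too, its arrays at 4 °C lay all below those at 22 °C.

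The remaining named members included AT1G09310, which encodes a protein with a domain of unknown function and had the highest signals of the members of 1 gene. In sid2-1 at 4 °C its arrays read 12.92, 13.17 and 12.83, in wild type at 4 °C 12.39, 10.36 and 12.36, in sid2-1 at 22 °C 13.37, 13.33 and 13.74 and in wild type at 22 °C 13.53, 13.4 and 13.78. Its sid2-1 arrays at 4 °C also lay all below its sid2-1 arrays at 22 °C. AT1G09310 was called lower in wild type, 3.65-fold, and its second wild-type array at 4 °C lay about 2 units under the other two. AT3G52920 was called as well. Its log2 signal was 6.83, 7.54 and 6.89 in sid2-1 at 4 °C, 6.53, 5.08 and 6.28 in wild type at 4 °C, 7.13, 7.43 and 8.23 in sid2-1 at 22 °C and 7.45, 7.47 and 8.16 in wild type at 22 °C. Its second wild-type array at 4 °C was again the lowest. AT1G78170 was called lower in wild type, with all 3 wild-type arrays at 4 °C below all others. In sid2-1 at 4 °C its arrays read 5.34, 5.33 and 5.1, in wild type at 4 °C 3.97, 3.22 and 4.38, in sid2-1 at 22 °C 5.25, 6.07 and 5.49 and in wild type at 22 °C 5.29, 4.93 and 5.33. AT1G12330 was called with a close group of wild-type values at 4 °C. Its log2 signal was 4.9, 5.41 and 5.23 in sid2-1 at 4 °C, 4.5, 4.58 and 4.11 in wild type at 4 °C, 5.79, 5.3 and 6.12 in sid2-1 at 22 °C and 5.23, 5.88 and 5.8 in wild type at 22 °C. Its sid2-1 arrays at 4 °C lay all above those of wild type at 4 °C. AT1G49975 was not called. In sid2-1 at 4 °C its arrays read 7.32, 6.87 and 7.54, in wild type at 4 °C 6.21, 5.48 and 7.2, in sid2-1 at 22 °C 6.75, 7.4 and 7.74 and in wild type at 22 °C 8.07, 7.06 and 7.5. Array 3 of wild type at 4 °C lay within the range of sid2-1 at 4 °C. The probe set shared by AT1G53890 and AT1G53870 was not called either, with a wild-type response of -1.38.

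The 32 members with no gene here held the widest swings. One of them had 8.79, 11.78 and 6.50 in sid2-1 at 4 °C, 10.13, 6.03 and 3.21 in wild type at 4 °C, 9.52, 8.73 and 10.43 in sid2-1 at 22 °C, and 7.41, 9.52 and 9.65 in wild type at 22 °C. Its difference between genotypes at 4 °C, 2.57, was the largest among members, yet the arrays of the 2 genotypes overlapped widely. Of all 56 members, 4 had an array under a log2 signal of 3.

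The spread between replicates was wider in one group than in the others. The median standard deviation over members was 0.43 in sid2-1 at 4 °C, 0.76 in wild type at 4 °C, 0.39 in sid2-1 at 22 °C and 0.41 in wild type at 22 °C. Among the 517 probe sets lower in both genotypes, it was 0.45 in sid2-1 at 4 °C and 0.41 in wild type at 4 °C. The conditions asked for a low mean in wild type at 4 °C, which a single low array can give. The members' spread is thus bound to the choice, and the 517 were not chosen on the difference between genotypes at 4 °C.

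To read the rule in arrays it had not used, the conditions were applied to the arrays of 2 replicate numbers and the chosen probe sets were read in the arrays of the remaining number. With number 1 held out, 140 probe sets were chosen, and their median difference between sid2-1 and wild type at 4 °C was 1.02 in the arrays that chose them and -0.03 in the held-out arrays, above 0 in 66 and below in 72. With number 3 held out, 115 were chosen, at 1.34 in the choosing arrays and 0.26 in the held-out arrays, above 0 in 93 and below in 22. With number 2 held out only 10 were chosen, and the held-out difference was 1.58, above 0 in 9 and below in 1. Members made up 36 of the 140, 6 of the 10 and 32 of the 115 chosen with numbers 1, 2 and 3 held out. These readings thus also cover probe sets that are not members. Other probe sets lower by at least 1.2 in wild type had held-out medians of 0.16, 0.67 and 0.23 for numbers 1, 2 and 3. The excess in held-out arrays was thus larger than in those other probe sets with number 2 held out, about level with them with number 3, and smaller with number 1. The held-out cold response of the chosen had a median of -0.77 in sid2-1 and -0.72 in wild type with number 1, -0.30 in sid2-1 and -1.93 in wild type with number 2, and -0.97 in sid2-1 and -1.04 in wild type with number 3. With numbers 1 and 3 held out, the chosen were thus lower at 4 °C by nearly the same median in both genotypes. The held-out medians of the interaction were -0.21, 1.38 and 0.19 for numbers 1, 2 and 3.

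**Figure D5:**
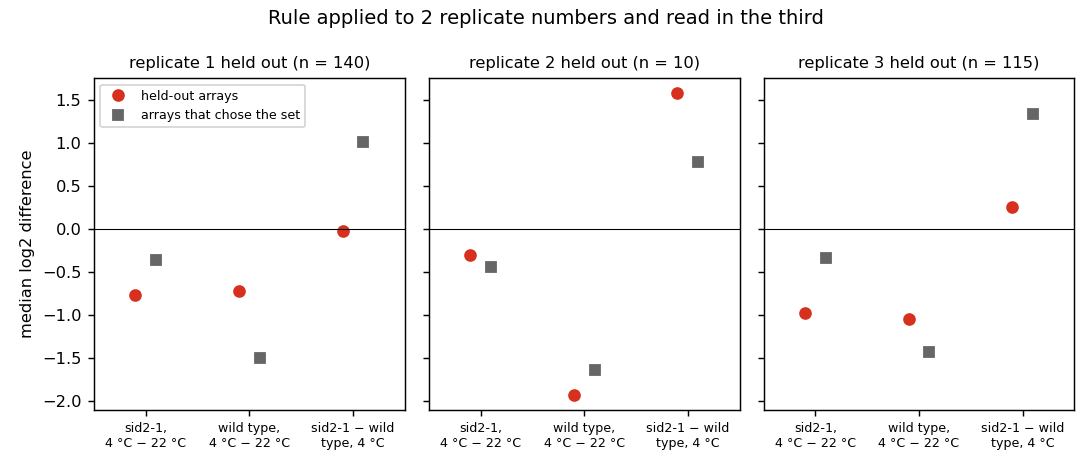
Median log2 difference (vertical axis) of probe sets chosen by the 4 conditions on 2 replicate numbers, in the held-out arrays (circles) and in the arrays that chose them (squares), for the cold response of sid2-1, that of wild type, and sid2-1 against wild type at 4 °C. For the last of these the held-out medians are -0.03, 1.58 and 0.26 with number 1, 2 and 3 held out. Members made up 36 of the 140, 6 of the 10 and 32 of the 115 chosen probe sets, in the same order.

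The held-out comparison is a description with 1 array per group and carries no test. The share of the chosen that met all 4 conditions again in the held-out arrays was 2.86% of 140, 30% of 10 and 1.74% of 115 for numbers 1, 2 and 3, against 0.621%, 3.42% and 0.645% of all probe sets with a mean of at least 5 in wild type at 22 °C. Those shares of the chosen rest on 4, 3 and 2 probe sets. The comparison set was not chosen on the wild-type response, so the higher shares say nothing about the difference between genotypes.

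The members' pathways were looked at through lists of genes. Of 28 lists, 18 held at least 5 measured loci, and none of the 28 held a member. The lists were matched to gene symbols and synonyms, and members known by locus alone, such as the pectin enzymes and the peroxidase above, were not reached by them. The 32 members with no gene here and the 2 of several genes could not be in any list. The lack of members in the lists thus does not show that these pathways are absent from the members. Among 11 genes of cellulose and pectin synthesis and remodelling, limma called 1 lower and 0 higher in sid2-1, and 3 lower and 1 higher in wild type, against backgrounds of 3.08% lower in sid2-1 and 6.19% lower in wild type. CSLC5, a glucan synthase, stood at -0.82 in sid2-1 and was called in wild type at -2.18, so it lay near the members but outside the limit on sid2-1. Among 29 expansin and xyloglucan genes, which loosen walls, 1 was called lower and 1 higher in sid2-1, and 3 lower and 1 higher in wild type. Among 10 nuclear photosynthesis genes 2 were called lower in each genotype. In the family of TBL28, 22 loci were measured. In sid2-1, 1 was called lower and 1 higher, and in wild type 3 were called lower and 0 higher, namely TBL26, TBL25 and TBL28. At 4 °C the genotypes differed by call in 0 of 22 of this family. Of the 3 Cpn60 loci, Cpn60beta2 had a cold response of -0.71 in sid2-1 and -1.01 in wild type, Cpn60beta3 had 0.63 in sid2-1 and 0.28 in wild type, and none was called.

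The 22 loci of members of 1 gene lay on all 5 chromosomes, 9 on chromosome 1, 3 on chromosome 2, 4 on chromosome 3, 1 on chromosome 4 and 5 on chromosome 5. None were direct neighbours, and the closest pair lay 190 positions apart in the order of protein-coding genes.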

How the data were processed

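The log2 signals were deposited by the authors as 1 table of 12 arrays; per the submitters' processing notes GCRMA and limma were used (versions not named), and which arrays were normalized together is not given in the sources used here. GCRMA corrects the background, normalizes the arrays to a common distribution and summarises probes per probe set. The values ran from 2.2 to 14.46, and 14.74% sat at the lowest value. Precision is limited by the number of arrays, 3 in each group. Of 22810 probe sets, 64 controls were left out. Genes were taken from the platform's annotation, which gave 1 gene to 13513 probe sets, several to 503 and none to 8730, and symbols were updated through the reference gene table (13436 found).

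From these values a model with group means was fitted with limma 3.58.1 in R 4.3.3 to the 12 arrays together (8 residual and 0.61 prior degrees of freedom). Its 5 contrasts set 4 °C against 22 °C within sid2-1 and within wild type, sid2-1 against wild type within each temperature, and both cold responses against each other (the interaction). Tests are two-sided, with Benjamini-Hochberg adjustment over the 22746 probe sets of a contrast. The fit was tested on simulated data. In these, arrays varied independently, and some probe sets were shifted on all wild-type arrays at 4 °C. Shared deviations of same-numbered arrays and single low arrays were not simulated. Members, gene lists and the rule for named genes (every member of 1 gene, the members nearest each limit, the genes left out, and called genes of the lists) were chosen with earlier results of these data known. The families of TBL28, Cpn60beta4 and THI2.2 were added after the members were seen. Alternatives were the 2 groups alone, array medians subtracted, array weights, a filter on a mean of at least 4, the replicate number as a block, stricter limits, group medians and leaving out each array. The selection with 1 replicate number held out and the block within each temperature were chosen after seeing the data. Same-numbered arrays of sid2-1 and wild type deviated together, with correlations of 0.211 to 0.252 at 4 °C and 0.283 to 0.467 at 22 °C. The block within each temperature therefore took the numbers as pairs, and the labels do not say what they share. The main fit, with its calls and standard errors, took no account of these pairs. Counts and figures came from pandas 2.3.3 and matplotlib 3.10.9 under Python 3.11.15.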

Additional observations from a re-analysis of the deposited data

How the results depend on the processing

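The number of probe sets that met the 4 conditions ran from 24 to 114 when 1 array was left out, and was 1 under stricter limits. Chosen on 2 replicate numbers, it was 140, 10 and 115 with numbers 1, 2 and 3 held out. Without the second array of wild type at 4 °C, 19 members remained and the median difference between genotypes at 4 °C was 0.72 in place of 1.05. Of the 56 members, 23 were called in wild type with all arrays, 5 with the 2 groups alone, 43 with the filter and 7 to 23 with 1 array left out. The count was 10 without the second array of wild type at 4 °C, 7 without the first or the third of wild type at 22 °C, 14 without the second of wild type at 22 °C and 15 without the second of sid2-1 at 22 °C. Over all probe sets, the 1428 calls in sid2-1 became 376 with the 2 groups alone and 2244 with the filter, and ran from 788 to 1457 with 1 array left out. The 2956 calls in wild type became 1407 with the 2 groups alone and ran from 1865 to 2859. With the filter, which left fewer probe sets to test, they became 3710. At 4 °C the 140 calls between genotypes became 0 with the 2 groups alone and 211 with the filter, and ran from 84 to 281. Members called there were 0 in the fit of all arrays, 1 with array medians subtracted (TBL28), 2 with the filter (TBL28 and AT1G78170) and 0 to 1 with 1 array left out. For the interaction the 14 calls became 30 with the filter and ran from 0 to 70, and at 22 °C the 1 call became 2 with the 2 groups alone, 0 with array medians subtracted, 0 with the filter, and ran from 0 to 20. Between temperatures the numbers were not taken as pairs. Same-numbered deviations correlated there at 0.0311 to 0.179 in sid2-1 and 0.000123 to 0.244 in wild type. The 0.244, for number 2, lies within the 0.211 to 0.252 found between genotypes at 4 °C. The correlations alone thus do not settle the pairing. With the number as 1 block over both temperatures, 19 members were called in wild type (SAH7, AT5G51560 and AT1G72810 no longer, AT2G43530 newly). Calls over all probe sets were then 3317 in wild type, 3 for the interaction and 0 at 22 °C. With the block within each temperature, chosen after seeing the data, calls were 27 at 4 °C, 0 for the interaction and 0 at 22 °C, and the block changed no other call of the named members. Signs turned for AT1G06000, whose difference at 4 °C ran from -0.16 (without the second sid2-1 array at 4 °C) to 1.69 and whose interaction ran from -0.23 (without that array) to 1.62, with -0.01 without the third wild-type array at 4 °C. They turned too for AT3G16370, whose interaction ran from -0.038 (without the second wild-type array at 4 °C) to 1.44. The cause of these shifts was not tested. A planned count of motifs in promoters was not run, since no promoter sequence was used here.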

Other observations

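Genes left out by the rule had the following values. UF3GT, a glycosyltransferase of anthocyanins, had a cold response of -1.93 in sid2-1 and -3.35 in wild type. AT4G14090, another enzyme that adds sugar to anthocyanins, had -1.17 in sid2-1 and -2.37 in wild type, and UGT78D1, which adds rhamnose to flavonols, had -0.81 in sid2-1 and -1.51 in wild type. BCAT4, an enzyme of glucosinolate synthesis from methionine, had -1.51 in sid2-1 and -2.19 in wild type, and AT2G31790, a glucosyltransferase, had -1.11 in sid2-1 and -2.23 in wild type. EXPA4, an expansin, had -0.94 in sid2-1 and -1.98 in wild type. All 6 were lower at 4 °C by more than the limit of -0.6 in sid2-1 and so did not meet the conditions.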
